A study of Homo sapiens with 23 samples.

Results

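Chromatin at the starts of 8 imprinted genes was examined in NCI-H23, a human line grown from a non-small cell lung tumour. The genes were H19, KCNQ1OT1, SNRPN, PEG3, PEG10, PLAGL1, MEG3 and NNAT. They were chosen by name, and every deposited peak with at least 1 bp within 2 kb of a fixed position at each gene was collected. This gave 159 peaks of 2889028 in all lists. The positions, in build hg19, were chromosome 11 at 2019065 for H19 and at 2721228 for KCNQ1OT1, chromosome 15 at 25200135 for SNRPN and chromosome 19 at 57352097 for PEG3. The others were chromosome 7 at 94285637 for PEG10, chromosome 6 at 144329390 for PLAGL1, chromosome 14 at 101292445 for MEG3 and chromosome 20 at 36149607 for NNAT.

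Imprinted genes are expressed mainly from the copy inherited from a single parent. Their control regions are methylated on the DNA of that parent's copy or of the other one. At a methylated control region, the zinc finger protein ZFP57 with TRIM28 and the methyltransferase SETDB1 keeps H3K9me3, a mark of silent chromatin, in place, while the unmethylated copy can carry H3K4me3, the mark of active promoters, and acetylated histones. Both kinds of mark can therefore be called at a single control region in a population of cells. Peak lists do not separate the parental copies, and no measurement of DNA methylation or RNA was used here.

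Chromatin immunoprecipitation followed by sequencing was done for 11 targets with 2 replicate libraries each. The targets were 5 acetylation marks (H4K5acK8ac, H4K5ac, H4K8ac, H4K12ac and H3K27ac), 5 methylation marks (H3K4me1, H3K4me3, H3K36me3, H3K9me3 and H3K27me3) and BRD2, a BET protein whose bromodomains bind acetylated lysine. H4K5acK8ac is the histone H4 tail acetylated at both lysines, and H3K36me3 marks transcribed gene bodies. All libraries came from the same cell line. The treatment protocol names the BET inhibitor JQ1 and its solvent DMSO, but no label ties either to a library, and no label states that replicates came from separate cultures. In the second H3K9me3 library the title and description carry different replicate numbers, and the title was followed. The lists held between 21580 peaks (H3K4me3 replicate 1) and 277462 peaks (H3K27me3 replicate 2), with unknown read depth. The −log10 q was under 1.3 for 64.7% (replicate 1) and 28.1% (replicate 2) of BRD2 peaks, against 0.348% to 23.4% in the other lists. The lists give no gene names, so the cell line was not checked against markers.

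The 8 genes differ in product and in the expressed copy. H19, KCNQ1OT1 and MEG3 are long noncoding RNAs, of which H19 and MEG3 are expressed from the maternal copy and KCNQ1OT1 from the paternal copy. SNRPN encodes a small nuclear ribonucleoprotein, PEG3 and PLAGL1 zinc finger proteins, PEG10 a protein derived from a retrotransposon and NNAT a small membrane protein; these 5 are expressed from the paternal copy. In the RefSeq gene table KCNQ1OT1 overlapped KCNQ1, NNAT overlapped BLCAP, SNRPN overlapped SNURF and SNHG14, PEG3 overlapped ZIM2, PLAGL1 overlapped HYMAI, and the gene next to PEG10 was SGCE. Peaks near these starts may belong to either gene.

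The reference promoters available for the members are shown because they differ in CpG dinucleotides, the sites of DNA methylation on which imprinting rests. RefSeq promoters (build GRCh38.p14, not the build of the peaks) were matched by symbol for 4 of the 8 genes. Each line gives the 250 bases before a start, 5′ to 3′, with CpG in capitals. MEG3, SNRPN and PLAGL1 had 3, 4 and 5 listed starts, and the 1 with the most CpG is shown. H19 had 1 listed start. Positions were not converted between builds, so whether any start shown is the start used for the peaks was not tested. The H19 sequence too may belong to another start than the one used.
H19, chr11:2001267-2001516, minus strand: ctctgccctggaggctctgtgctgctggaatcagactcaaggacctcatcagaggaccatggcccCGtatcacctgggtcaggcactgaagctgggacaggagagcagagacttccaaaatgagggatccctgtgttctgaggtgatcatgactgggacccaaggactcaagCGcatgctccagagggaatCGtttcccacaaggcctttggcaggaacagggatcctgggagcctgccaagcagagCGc
SNRPN, chr15:24954737-24954986, plus strand: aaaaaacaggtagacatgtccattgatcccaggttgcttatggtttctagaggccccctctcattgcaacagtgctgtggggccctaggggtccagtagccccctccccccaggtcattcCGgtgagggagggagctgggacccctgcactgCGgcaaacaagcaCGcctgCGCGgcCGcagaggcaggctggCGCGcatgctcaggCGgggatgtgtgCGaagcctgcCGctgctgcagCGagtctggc
PLAGL1, chr6:144008260-144008509, minus strand: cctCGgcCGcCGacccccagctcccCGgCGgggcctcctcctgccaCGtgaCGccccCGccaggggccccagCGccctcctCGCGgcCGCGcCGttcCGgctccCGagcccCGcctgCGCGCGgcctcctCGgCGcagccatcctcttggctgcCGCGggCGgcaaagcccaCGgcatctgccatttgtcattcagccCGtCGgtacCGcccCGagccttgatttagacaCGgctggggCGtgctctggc
MEG3, chr14:100825858-100826107, plus strand: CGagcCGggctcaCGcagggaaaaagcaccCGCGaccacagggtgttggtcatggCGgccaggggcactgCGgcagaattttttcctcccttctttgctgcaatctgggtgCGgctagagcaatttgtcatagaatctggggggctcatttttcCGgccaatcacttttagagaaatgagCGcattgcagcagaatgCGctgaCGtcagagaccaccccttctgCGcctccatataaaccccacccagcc

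In the full 300 bases of the promoters shown, which reach 50 bases past the listed start, H19 had 6 CpG, SNRPN 18, MEG3 19 and PLAGL1 39. The other listed starts had 2 to 11 CpG at SNRPN, 17 and 18 at MEG3 and 2 to 31 at PLAGL1. The median of 35114 promoters in the table, which were not chosen by CpG, was 14. The hexamer TGCCGC, the core of the motif bound by ZFP57, was searched on both strands. In the promoters shown, it occurred once on each strand in SNRPN and in PLAGL1, once on the reverse strand in MEG3 and not in H19. Of all promoters in the table, 16.7% held it, and of the 14453 with at least 20 CpG, 30.4% did. A match describes these letters only and does not show binding.

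The starts fell into 4 patterns. SNRPN and PEG10 had H3K4me3, acetylation, BRD2 and H3K9me3. H19, MEG3 and PLAGL1 had H3K4me3 and acetylation with no H3K9me3 peak within 2 kb. PEG3 and KCNQ1OT1 had H3K9me3 alone in both replicates. NNAT had H3K36me3 across the start and acetylation upstream, without H3K4me3. Of 88 combinations of a start and a target, 42 had a peak in both replicate lists, 7 in 1 list and 39 in neither. In 41 of the 42 the peaks of the replicates shared at least 1 bp; the exception was BRD2 at PLAGL1.

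**Figure D1:**
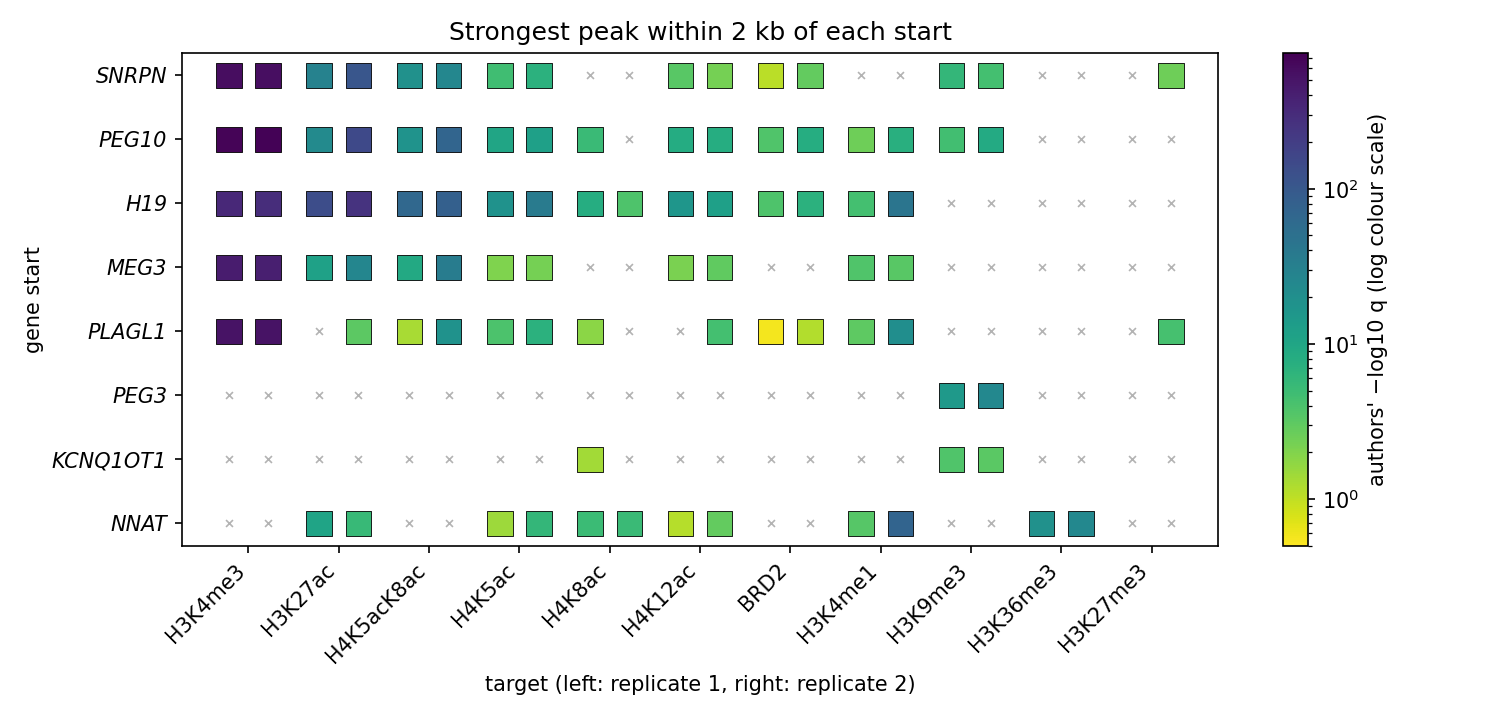
Strongest peak within 2 kb of each of the 8 starts in each of the 22 lists, coloured by the authors' −log10 q on a log colour scale; crosses mark lists without a peak. The PEG3 row holds H3K9me3 squares alone, and the SNRPN and PEG10 rows hold H3K4me3, acetylation, BRD2 and H3K9me3 in both replicates.

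Counts of called starts were read against 2 backgrounds. The first was 20506 windows, each within 2 kb of the strongest summit of an H3K4me3 region called in both replicates. The second was 773162 consecutive windows of 4001 bp over the span of called peaks. A window counted as called with a peak of the target in both replicate lists. No test was made: the members were chosen with earlier results of these data known, and peaks are not replicates. The counts set starts against windows, not libraries against libraries. A comparison of 2 libraries against 2 could in any case not give an exact two-sided p under 0.333.

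H3K4me3 was called at 5 of the 8 starts, against 3.79% of consecutive windows. H3K9me3 was called at 4 starts, against 7.56% of H3K4me3 windows and 14.9% of consecutive windows. Both marks were called at 2 starts, SNRPN and PEG10. These were 2 of the 5 starts with H3K4me3, against 7.56% of H3K4me3 windows, which hold H3K4me3 by construction. Of all 8 starts they were 2, against 0.287% of consecutive windows. The same 2 starts had H3K4me3, at least 1 acetylation mark and H3K9me3, a combination found in 5.96% of H3K4me3 windows and 0.228% of consecutive windows. H3K27ac with H3K9me3 was called at the same 2 starts, against 4.77% and 0.665%, and BRD2 with H3K9me3 at the same 2, against 3.37% and 0.208%. H3K4me3 without H3K9me3 was called at 3 starts, of the 5 with H3K4me3 and the 8 in all, against 92.4% and 3.51%. The H3K4me3 windows are centred on summits, not on starts. The strongest H3K4me3 summit at MEG3 lay 1814 bp after the start, and 2 kb around it holds an H3K9me3 peak in both lists. Centred in that way, MEG3 would count as having both marks. With peaks of a −log10 q of at least 5 alone, H3K9me3 was called at 1 start, PEG3, and with H3K4me3 at 0. At that threshold 3.26% of H3K4me3 windows held H3K9me3.

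Among the acetylation marks, H4K5ac was called at 6 starts (84.5% of H3K4me3 windows and 7.89% of consecutive windows). H4K5acK8ac was called at 5 starts (86.1% and 6.42%), H3K27ac at 5 (78.8% and 7.63%) and H4K12ac at 5 (80.7% and 5.84%). H4K8ac was called at 2, H19 and NNAT (59.8% and 8.00%), and at 5 in replicate 1 alone. H3K4me1, typical of enhancers and promoter flanks, was called at 5 starts (87.0% and 12%), and BRD2 at 4 (52.5% and 2.08%), of which 2, H19 and PEG10, had a −log10 q of at least 1.3 in both lists. H3K36me3 was called at 1 start (25.7% and 11.6%). H3K27me3, the Polycomb mark, was called at 0 starts in both lists, against 11.7% and 14.2%, and in replicate 2 alone at SNRPN and PLAGL1. With a −log10 q of at least 5 in both lists, H4K5ac and H4K12ac were each called at 2 starts. H4K8ac was then called at 1 and H3K4me1 at 0, while H3K27ac was called at 5 and H4K5acK8ac at 4. Window shares of these marks and of BRD2 were not computed at a −log10 q of at least 1.3 or 5. The counts at those thresholds therefore have no background and cannot be read as particular to these starts.

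**Figure D2:**
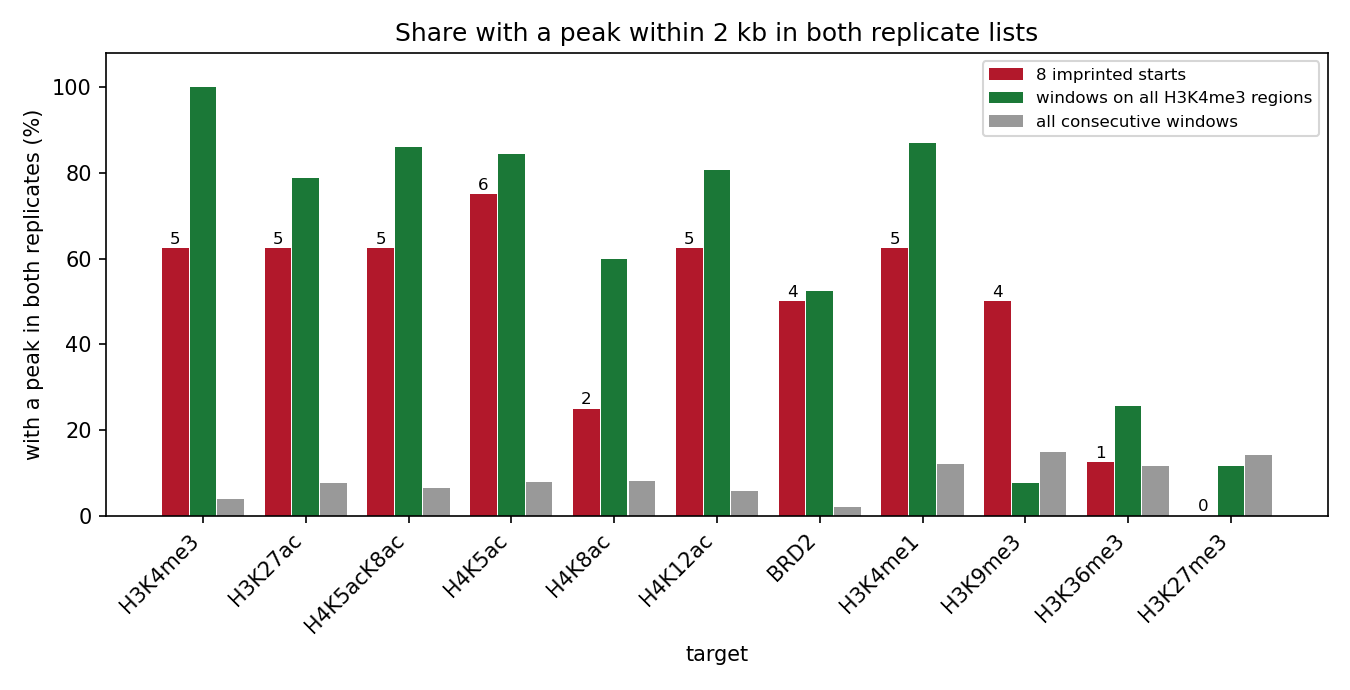
Share with a peak in both replicate lists within 2 kb, per target, for the 8 starts (red, with the number called), for windows on all H3K4me3 regions (green, 100% for H3K4me3 by construction) and for all consecutive windows (grey). H3K9me3 is the target whose share at the 8 starts lies above both backgrounds, with 4 starts against 7.56% and 14.9%. Of these 4, SNRPN and PEG10 also had H3K4me3.

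The control region at SNRPN spans its first exon and is the control element of the Prader-Willi and Angelman syndrome region. At SNRPN, the H3K4me3 peak had a fold enrichment over local background, the authors' value and used here within a list alone, of 84.6 in replicate 1 and 89.9 in replicate 2. It ran from 461 bp before to 2226 bp after the start in replicate 1 and from 393 bp before to 2130 bp after it in replicate 2. H3K9me3 was called on the same bases, with 3 peaks within 2 kb in replicate 1 and 5 in replicate 2, the strongest at 4.96-fold and 3.68-fold. Of the bases under H3K9me3 within 2 kb in replicate 1, 100% lay under H3K4me3 peaks of either replicate. In replicate 2 the share was 61.6%. Of all H3K9me3 peaks in the list, 81.7% and 58.2% were weaker than the strongest one at SNRPN.

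SNRPN acetylation was strongest in the first part of the gene body. H3K27ac had a fold enrichment of 10.8 and 21.3, and H4K5acK8ac of 10.2 and 9.39, with H4K5acK8ac summits 1491 and 1571 bp after the start. BRD2 was called at 3.25-fold and 4.38-fold, with a −log10 q of 1.06 and 2.86. The BRD2 peak of replicate 1 had its summit 1553 bp after the start, and replicate 2 had a peak with its summit 1552 bp after it and another of equal fold at 975 bp. So BRD2 lay near the H4K5acK8ac summits, downstream of the start, in both lists. No H4K8ac peak and no H3K4me1 peak was called within 2 kb of SNRPN in either list, and the nearest peaks of these marks lay at 483511 and 484303 bp for H4K8ac and 437427 and 481523 bp for H3K4me1.

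The wider SNRPN region was covered by H3K9me3 on both sides. Within 20 kb, there were 27 H3K9me3 peaks in replicate 1 and 39 in replicate 2. They covered 7839 and 12448 bp upstream and 7216 and 9382 bp downstream. H3K36me3 was found on the downstream side alone, covering 10285 and 8988 bp after the start and 0 bp before it. The H3K4me3 peak was the only H3K4me3 peak within 20 kb in either list.

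PEG10 shares its promoter region with SGCE, which is transcribed in the other direction and is imprinted too. The H3K4me3 peak at PEG10 was the highest of the 8 starts, with 86.6-fold in replicate 1 and 96.1-fold in replicate 2. It reached from 1661 bp before to 1688 bp after the start in replicate 1 and from 1678 bp before to 1635 bp after it in replicate 2. The strongest acetylation and BRD2 peaks lay on the upstream side, toward SGCE, and H3K9me3 on the downstream side. H3K27ac summits lay 530 and 401 bp before the start, at 8.50-fold and 24.8-fold. BRD2 summits lay 431 and 274 bp before it, at 4.46-fold and 6.99-fold. H3K9me3 ran from 605 to 1955 bp after the start in replicate 1 and from 126 to 2098 bp after it in replicate 2, at 4.10-fold and 4.86-fold.

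Of the bases of H3K9me3 within 2 kb of PEG10, 76.3% to 83.4% lay under H3K4me3 peaks over the 4 combinations of libraries, within the 61.6% to 100% at SNRPN. H4K5acK8ac overlapped H3K9me3 less than at SNRPN: 0% to 23.8% of the H3K9me3 bases were shared, against 42.5% to 81.4% at SNRPN. For H3K27ac the ranges overlapped, with 11.3% to 55.7% at PEG10 and 50.0% to 91.0% at SNRPN. Weaker H3K27ac peaks also lay after the PEG10 start. They ran from 1214 to 1424 bp in replicate 1, and from 57 to 724 and 969 to 1414 bp in replicate 2. The stronger BRD2 peak upstream of PEG10 shared no base with H3K9me3 in either list. A second, weaker BRD2 peak in replicate 2 (2.83-fold, −log10 q of 0.745), 837 to 1018 bp after the start, lay within H3K9me3 for 182 bp. H4K8ac was called at PEG10 in replicate 1 alone, at 3.97-fold.

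**Figure D3:**
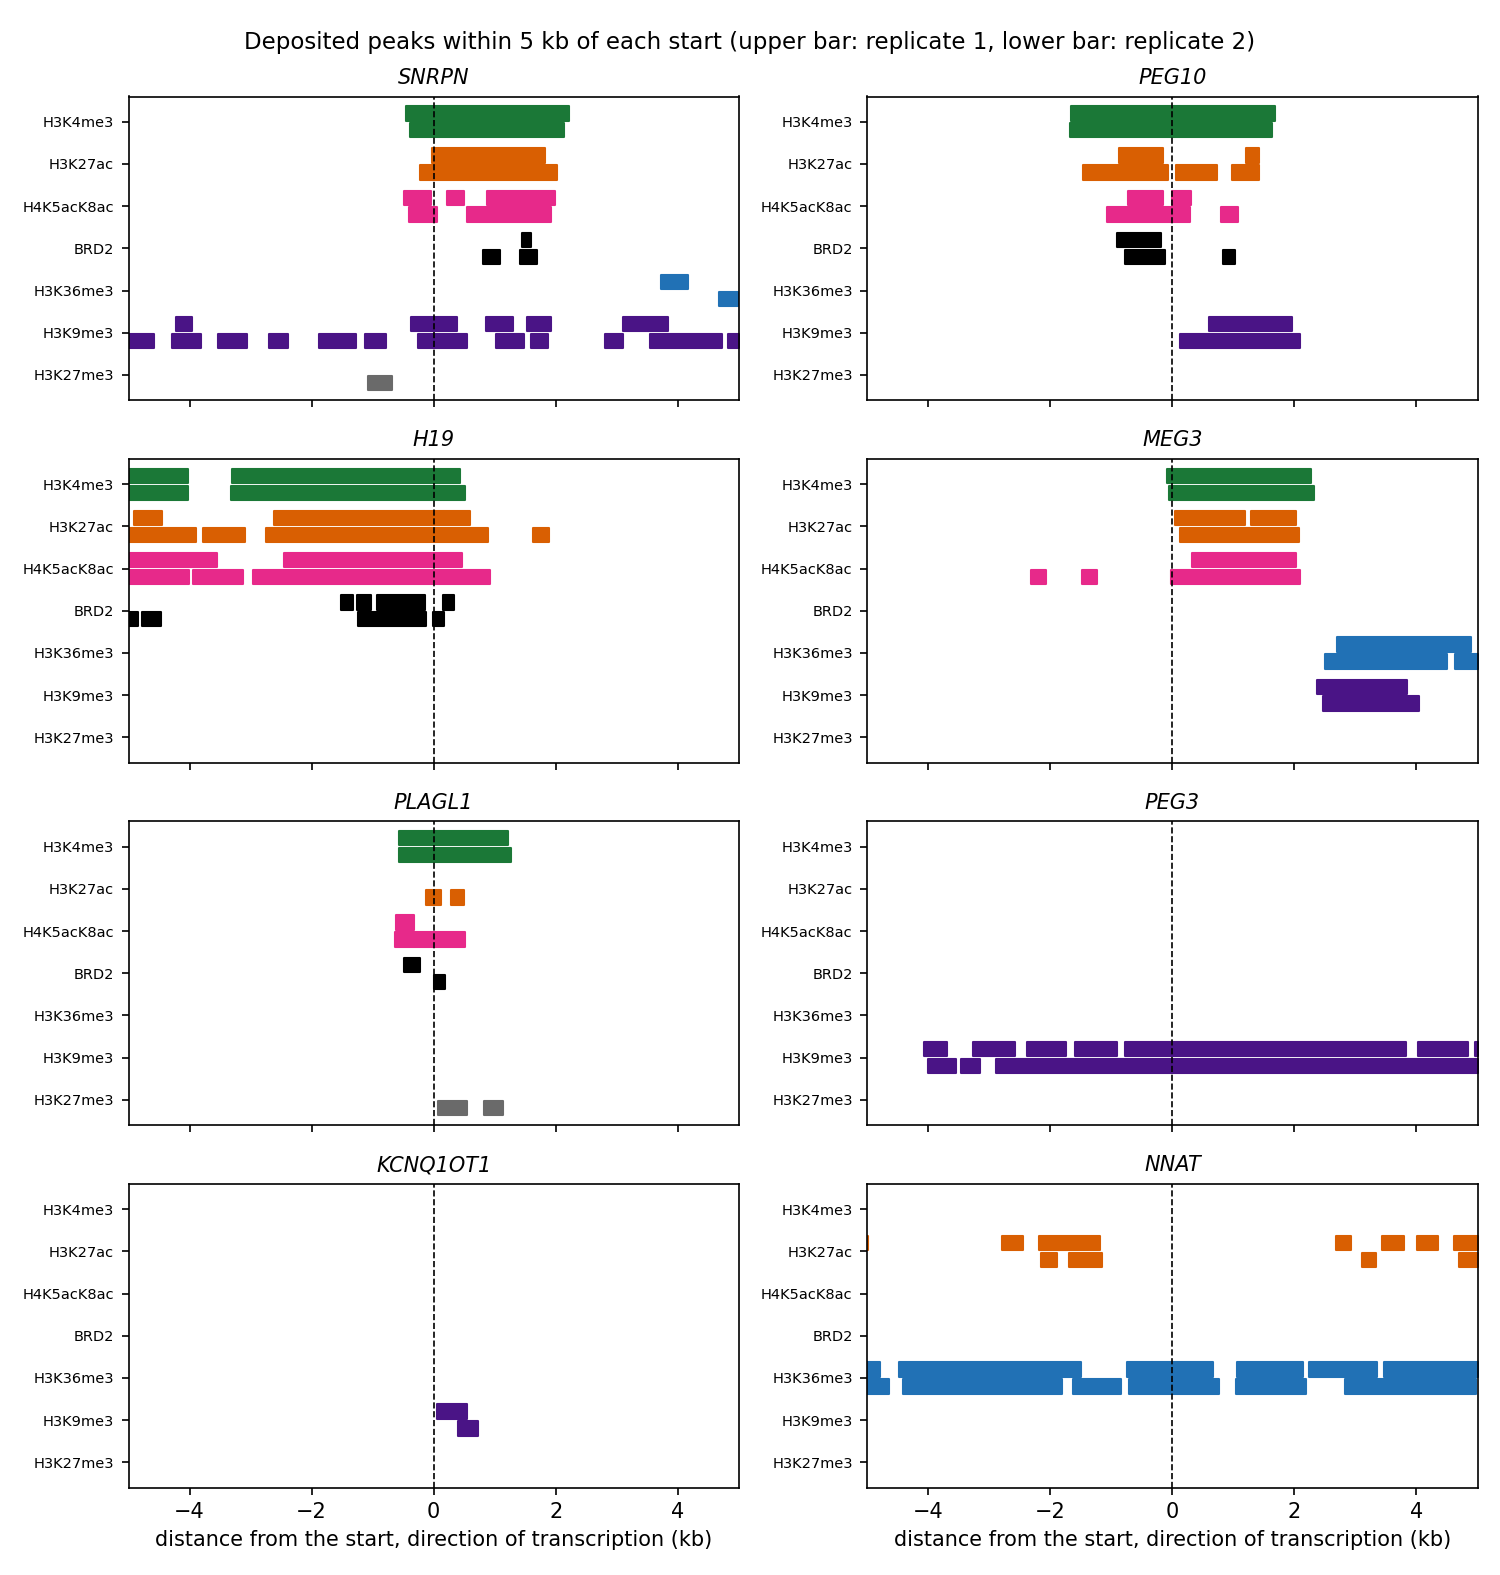
Deposited peaks of 7 targets within 5 kb of each of the 8 starts, as bars for replicate 1 (upper) and replicate 2 (lower), against distance from the start in the direction of transcription in kb. H3K9me3 bars lie beneath the H3K4me3 bar at SNRPN, on its downstream part at PEG10 and just beyond its end at MEG3.

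H19 lies on the minus strand next to IGF2, and both are governed by a control region upstream of H19 that is methylated on the paternal copy. Within 2 kb, H19 had the strongest acetylation of the 8 starts by fold enrichment and no H3K9me3. H3K27ac reached 27.8-fold in replicate 1 and 40.8-fold in replicate 2. H4K5acK8ac reached 22.1-fold and 18.6-fold, and H4K12ac 7.26-fold and 7.15-fold. By fold enrichment, H19 ranked first among the members in both lists of each of the 5 acetylation marks. By −log10 q, H4K8ac in replicate 2 was stronger at NNAT (5.28) than at H19 (3.81). Its H3K4me3, at 54.2-fold and 53.0-fold, was the lowest of the 5 starts with that mark in both lists.

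The marks at H19 lay mostly upstream of the start. The H3K4me3 peak extended to 3304 and 3315 bp upstream but only 433 and 518 bp into the gene. A second H3K4me3 peak followed at 4030 to 5348 bp upstream in replicate 1 and 4032 to 5292 bp in replicate 2, at 35.8-fold and 34.4-fold. H4K5acK8ac was called there too, at 8.22-fold in replicate 1 and 9.43-fold in replicate 2. The strongest BRD2 peak ran from 933 to 139 bp before the start in replicate 1 and from 1243 to 127 bp before it in replicate 2, at 4.69-fold and 6.56-fold. The nearest H3K9me3 peak lay 65797 bp from the start in replicate 1 and 47812 bp in replicate 2, the nearest H3K36me3 peak 40995 and 39725 bp, and the nearest H3K27me3 peak 44355 and 43366 bp.

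MEG3 is expressed from the maternal copy of the cluster that it shares with DLK1, whose germline control region lies in the intergenic DNA upstream of MEG3. H3K4me3 began at the MEG3 start, 96 and 57 bp before it, and reached 2269 and 2320 bp into the gene, at 66.7-fold and 67.9-fold. Acetylation was weaker than at H19: H3K27ac was 6.08-fold and 8.53-fold, H4K5acK8ac 6.50-fold and 11.6-fold, and H4K5ac 3.01-fold and 3.02-fold. No BRD2 peak lay within 2 kb; the nearest lay 16427 bp away in replicate 1 and 116221 bp in replicate 2. MEG3 was the only 1 of the 5 H3K4me3 starts without BRD2 in both lists, against 47.5% of all H3K4me3 windows and 2.18% of consecutive windows.

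H3K9me3 flanked MEG3 on both sides outside the 2 kb. An H3K9me3 peak began close behind the end of the H3K4me3 peak, at 2363 to 3838 bp after the start in replicate 1 (4.96-fold) and 2466 to 4049 bp in replicate 2 (5.52-fold). H3K36me3 was called over the same stretch, from 2695 to 4901 bp and from 2495 to 4506 bp, at 7.19-fold and 6.46-fold. Upstream, a block of H3K9me3 lay between 13411 and 18662 bp before the start in replicate 1 and between 13594 and 18667 bp in replicate 2. Its strongest peaks reached 7.25-fold and 8.05-fold, above the 4.96-fold and 3.68-fold at SNRPN. Weaker H3K27me3 peaks covered 2950 and 2279 bp within 20 kb upstream and 0 bp downstream, in the same upstream stretch.

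PLAGL1, a zinc finger gene linked to transient neonatal diabetes, combined an H3K4me3 peak near the middle of all H3K4me3 windows with little acetylation. H3K4me3 was 77.7-fold in replicate 1 and 83.2-fold in replicate 2. H3K27ac was not called within 2 kb in replicate 1 and was 3.05-fold in replicate 2. H4K5acK8ac was 2.84-fold and 7.66-fold, and H4K5ac 3.84-fold and 4.78-fold. The acetylation lists of the replicates differed here more than at H19: H4K8ac was called in replicate 1 alone and H4K12ac in replicate 2 alone. BRD2 was called in both lists, but its −log10 q was 0.575 and 1.16, and the peaks, of 265 and 180 bp, shared no base.

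The exact pattern of called and uncalled targets at PLAGL1 was found in 1 of the 20506 H3K4me3 windows, the window on the PLAGL1 region itself. The pattern of each other start was found in 12 windows for SNRPN (0.0585%), 33 for PEG10 (0.161%), 1148 for MEG3 (5.60%) and 4753 for H19 (23.2%). The counts for SNRPN, PEG10 and H19 include the windows on their own regions. These counts rest on borderline calls: at PLAGL1, 4 targets were called in 1 list alone, and BRD2 at SNRPN and PLAGL1 was lost at a −log10 q of at least 1.3. At PLAGL1 the nearest H3K9me3 peak lay 13437 bp away in replicate 1 and 13208 bp in replicate 2, inside the transcribed side. H3K27me3 was called within 2 kb in replicate 2 alone, at 4.20-fold.

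The strength of the 5 starts with H3K4me3 was placed among all H3K4me3 windows with a peak of the same target in the same list, by −log10 q. For H3K4me3 itself, 72.0% and 72.5% of windows were weaker than PEG10, 53.8% and 50.1% weaker than SNRPN, and 47.9% and 45.4% weaker than PLAGL1. The values were 40.9% and 37.6% for MEG3 and 34.6% and 31.6% for H19. These starts therefore had H3K4me3 of middling rank, and the order of the 5 by fold enrichment was the same in both lists. Acetylation and BRD2 did not follow that order.

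For H3K27ac, 49.1% and 62.0% of windows with that mark were weaker than H19. The values were 23.3% and 38.9% for SNRPN, 20.1% and 46.3% for PEG10 and 12.9% and 18.6% for MEG3. PLAGL1 had 1.57% in replicate 2. For H4K5acK8ac the values were 64.1% and 60.3% for H19, 26.9% and 24.0% for SNRPN, 25.0% and 55.0% for PEG10, 13.7% and 32.1% for MEG3 and 0.214% and 17.9% for PLAGL1. Among windows with the mark, SNRPN, PEG10, MEG3 and PLAGL1 thus ranked lower for these acetylation marks than for H3K4me3 in each list where called. H19 ranked higher. The direction depends in part on leaving out windows without the mark. With those counted as weaker, MEG3 ranked higher for H4K5acK8ac in replicate 2, at 38.4% against 37.6% for H3K4me3. SNRPN was then close for H3K27ac in replicate 2, at 48.5% against 50.1%. The PEG10 ranks differed widely between the replicates for both marks.

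**Figure D4:**
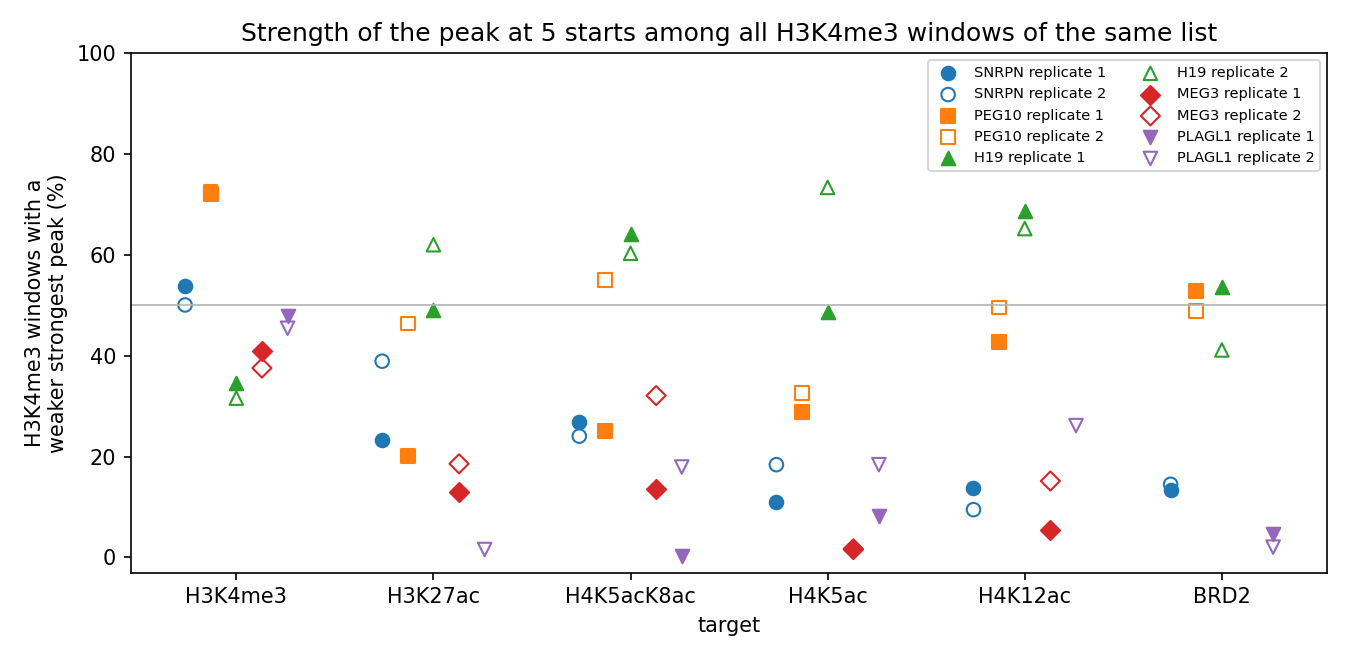
Share of H3K4me3 windows with a peak of the target that were weaker by −log10 q than each of 5 starts, for 6 targets. Filled symbols are replicate 1 and open symbols replicate 2, and a missing symbol means no peak. H19 rises from 34.6% and 31.6% for H3K4me3 to 64.1% and 60.3% for H4K5acK8ac, and PLAGL1 falls from 47.9% and 45.4% to 0.214% and 17.9%.

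For BRD2, 53.6% and 41.1% of H3K4me3 windows with BRD2 were weaker than H19 and 52.9% and 48.9% weaker than PEG10. The values for SNRPN were 13.4% and 14.5%, and for PLAGL1 4.71% and 2.04%. H19 and PEG10 thus carried BRD2 of middling strength and SNRPN and PLAGL1 weak BRD2. Over all H3K4me3 windows, BRD2 was called at 44.6% of the 1550 with H3K9me3 and at 53.7% of the 18074 without H3K9me3 in either list. H3K27ac was called at 63.1% and 81.0% of these windows.

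PEG3 and KCNQ1OT1 had H3K9me3 in both replicates and no H3K4me3. H3K9me3 without H3K4me3 was found at these 2 starts and in 14.7% of consecutive windows, so it was a common state. PEG3, a zinc finger gene whose control region covers its first exon, had the strongest H3K9me3 of the 8 starts. Its strongest peak was 8.26-fold with a −log10 q of 14.9 in replicate 1, and 9.20-fold with 24.7 in replicate 2. Of all H3K9me3 peaks in the list, 98.3% and 99.1% were weaker. The peak of replicate 2 was 8942 bp wide and ran from 2894 bp before to 6047 bp after the start.

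No peak of any other target lay within 2 kb of PEG3 in any list. The nearest H3K4me3 peak lay 244324 bp away in replicate 1 and 244415 bp in replicate 2. The nearest peak of H3K27ac lay at 245019 and 244863 bp. H3K9me3 covered 15068 and 17441 bp of the 20 kb downstream of the start and 9814 and 11837 bp of the 20 kb upstream. H3K36me3 was not called within 20 kb in either list, and H3K27me3 was called there in replicate 2 alone.

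KCNQ1OT1 is the antisense RNA that starts inside KCNQ1 and silences neighbouring genes on the paternal copy. At KCNQ1OT1 the only mark called in both lists was H3K9me3. The peak lay 55 to 554 bp after the start in replicate 1 (3.97-fold, −log10 q of 3.70) and 391 to 730 bp after it in replicate 2 (3.22-fold, 3.22). The peaks shared 164 bp. Further H3K9me3 peaks lay upstream in both lists, the nearest at 6296 to 6690 bp before the start in replicate 1 and 6263 to 6702 bp in replicate 2. Of all H3K9me3 peaks in the list, 56.5% and 36.1% were weaker, so these were ordinary peaks of their lists. H4K8ac was called in replicate 1 alone, at 2.53-fold with a −log10 q of 1.37. The nearest H3K4me3 peak lay 162561 and 162563 bp away.

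**Figure D5:**
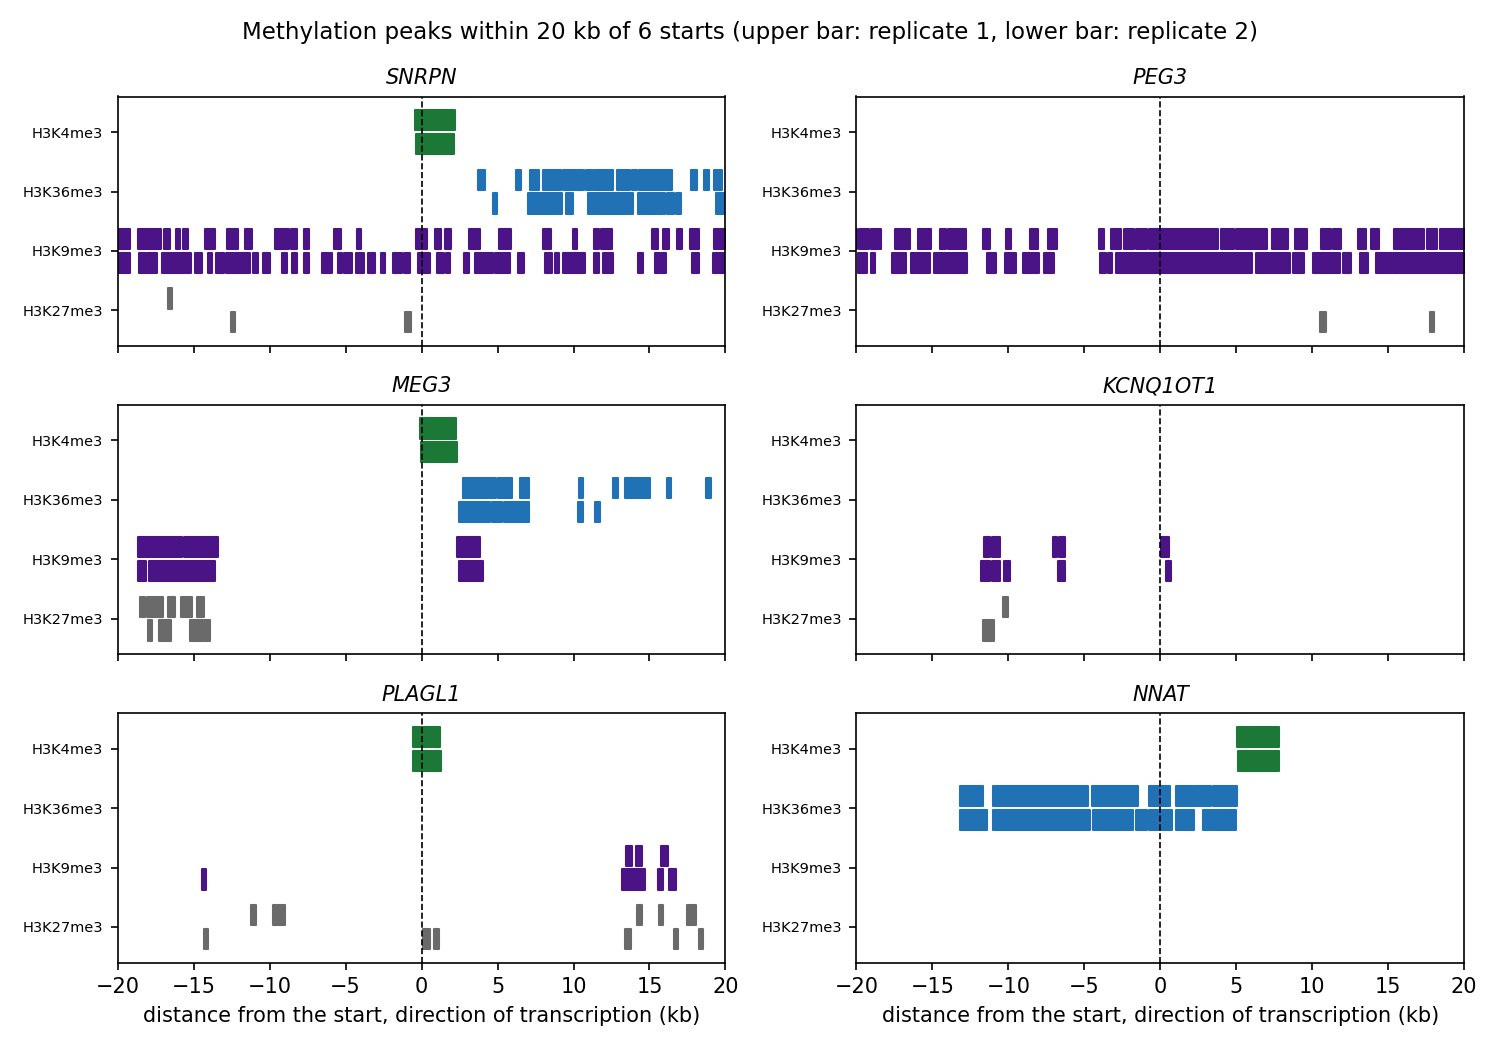
Peaks of 4 methylation marks within 20 kb of 6 starts, as bars for replicate 1 (upper) and replicate 2 (lower), against distance from the start in the direction of transcription in kb. At PEG3 H3K9me3 covers both sides, at MEG3 a block lies 13411 to 18662 bp upstream in replicate 1, and at NNAT H3K36me3 crosses the start and ends near the H3K4me3 peak 5020 bp downstream.

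NNAT lies inside BLCAP, which is transcribed in the other direction. H3K36me3 was called across the NNAT start in both lists, at 6.69-fold in replicate 1 and 6.14-fold in replicate 2, where a neighbouring peak 1813 to 4418 bp upstream reached 7.19-fold. It covered 11463 and 12228 bp of the 20 kb upstream and 4430 and 4053 bp of the 20 kb downstream. The nearest H3K4me3 peak began 5020 and 5116 bp downstream, at 64.5-fold and 63.6-fold. H3K36me3 peaks thus lay on both sides of NNAT and reached close to that H3K4me3 peak. Within 2 kb of NNAT, H3K27ac lay upstream and was called 1180 to 2187 bp before the start in replicate 1 (4.86-fold) and in 2 peaks between 1148 and 2154 bp before it in replicate 2 (the stronger at 3.18-fold).

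At 1 kb, none of the 4 acetylation marks called at NNAT was called in both lists, and H4K12ac there was also lost at a −log10 q of at least 1.3. H4K8ac at NNAT was 3.49-fold and 4.54-fold, and H4K5acK8ac and BRD2 were not called within 2 kb in either list. Outside the 2 kb, H4K5acK8ac overlapping the downstream H3K4me3 peak was 47.3-fold and 44.8-fold, and H3K27ac there was 51.8-fold and 43.2-fold. The strongest BRD2 peak there was 7.07-fold and 16.1-fold. The nearest H3K9me3 peak lay 28618 and 28476 bp away. The pattern of NNAT was found in 371 consecutive windows (0.0480%). KCNQ1OT1 and PEG3 had the same pattern over all 11 targets, which was found in 55311 consecutive windows (7.15%). SNRPN and PEG10 were alike in 10 of the 11 targets and differed in H3K4me1 alone. Among the 5 starts with H3K4me3, H19 and MEG3 were alike in 9 targets, and PEG10 was alike with each of them in 9 too. PEG10 was thus as like H19 and MEG3 as these were to each other. The remaining pairs of the 5, H19 and PLAGL1 among them, were alike in 8, except SNRPN and PLAGL1 in 7.

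Within 20 kb, H3K9me3 was called in both lists at 6 starts, all but H19 and NNAT, against 47.3% of H3K4me3 windows and 55.1% of consecutive windows. H3K36me3 was called at 4 starts, SNRPN, PEG10, MEG3 and NNAT, against 61.3% and 23.2%. At SNRPN, MEG3 and PEG10 it lay on the transcribed side alone, with 422 and 1076 bp covered at PEG10. The H3K36me3 peaks of the replicates at PEG10 shared no base. H3K27me3 was called at 4 starts, KCNQ1OT1, SNRPN, PLAGL1 and MEG3, against 32.3% and 39.8%. Only at MEG3 did its peaks in the replicate lists share bases. At KCNQ1OT1, SNRPN and PLAGL1 the replicates had H3K27me3 peaks at different places.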

How the data were processed

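Per the submitters' processing notes, BWA, MACS2 and build hg19 were used by the authors; versions, settings and the role of the input are not given in the sources used here. Each of 22 libraries had its own deposited narrowPeak list; the input library has no list used here. Values per peak are the authors', used within a list alone: a deposited fold enrichment (a ratio to local background) and deposited −log10 values of p and q. The deposited score column was not used.

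Peaks with at least 1 bp within 2 kb of a start were collected with Python 3.11.15, numpy 2.4.6 and pandas 2.3.3. The strongest peak by −log10 q represents a start. Shares over windows have Wilson 95% intervals, which cover counting error only. Functions were tested on simulated data (5000 windows, 3 shares, 0 wrong calls). All 8 genes named by the series' rule are described; the members and lists were chosen with earlier results of these data known. With 2 libraries per target, each library's value is printed and no SD or p is given. Alternatives were 1 kb and 5 kb, a −log10 q of at least 1.3 or 5, summits in place of peaks, and leaving out a replicate. Strands of the genes are textbook knowledge, checked for 4 genes against RefSeq.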

Additional observations from a re-analysis of the deposited data

How the results depend on the processing

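The count of starts with H3K4me3 was 5 under every alternative run. At a −log10 q of at least 5, H3K9me3 was called in both lists at 1 start, PEG3. The number with H3K4me3 and H3K9me3 was then 0, and with acetylation as well 0. BRD2 was called at 2 starts, H19 and PEG10, at a −log10 q of at least 1.3 and at 0 at 5. Only for H3K9me3 was the share of H3K4me3 windows computed anew at these thresholds. H3K27me3 was called at 0 starts without replicate 2 and at 2, SNRPN and PLAGL1, without replicate 1. The share of H3K4me3 windows with H3K9me3, 7.56%, was 3.79% at 1 kb, 16.4% at 5 kb, 3.26% at a −log10 q of at least 5 and 5.88% by summits, and 9.14% to 10.3% when a replicate was left out. At 5 kb MEG3 joined the starts with both marks, which were then 3. Leaving out a replicate kept 4 starts with H3K9me3, 2 with both marks, 4 with BRD2 and 5 with H4K5acK8ac, and gave 5 to 6 with H3K27ac and 2 to 5 with H4K8ac. At 1 kb, BRD2 at SNRPN and every acetylation mark at NNAT were lost. With the replicate block, only libraries of the same number, the starts with both marks were 2. Read depth is unknown, which limits what can be said of weak calls. Labels give no pairing beyond the number, and no test was run, so the block has no p.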
